A study of Mus musculus with 14 samples.

Results

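The called binding sites of 2 Polycomb proteins, Ring1b and Suz12, were compared in mouse cells with wild-type histone H3.3. The members were the 1754 Ring1b peaks and the 631 Suz12 peaks of the H3WT DMSO libraries, with 1 library per protein, out of 100123 peaks in 12 libraries. Overlapping peaks of both lists were merged into 1867 sites. Of these, 367 sites held both proteins, 1361 held Ring1b alone and 139 held Suz12 alone.

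The libraries came from chromatin immunoprecipitation with sequencing (ChIP-seq), which maps where a protein or a histone mark sits on DNA, of cells whose label is PDGF neural stem cells. The series' design text calls them mouse DIPG cells, DIPG standing for diffuse intrinsic pontine glioma, a brainstem tumour of children. The K27M groups expressed histone H3.3 with the K27M mutation and the H3WT groups expressed wild-type H3.3. EPZ groups received 3 µM EPZ6438, an inhibitor of the PRC2 enzyme Ezh2, for 12 days, and DMSO groups received the solvent. Ring1b and Suz12 were mapped in 1 K27M DMSO and 1 H3WT DMSO library each. H3K27me3 was mapped in 2 libraries each of K27M EPZ, H3WT EPZ, K27M DMSO and H3WT DMSO cells. All groups share the PDGF background named in the labels, and the sources used here do not give the promoter that drives PDGF or H3.3, whether a line is 1 clone, or whether replicates were separate cultures. Peak lists hold no expression, so the labelled cell type could not be checked. Of 10 markers of neural stem and glial progenitor cells, 1 (Nes) had a Ring1b or Suz12 peak at a gene end. So did 0 of 6 astrocyte and oligodendrocyte, 0 of 4 neuron and 0 of 6 mesenchymal, endothelial and microglial markers. Over all 21631 protein-coding genes, 94.7% had neither protein there, so counts this small do not tell the cell types apart.

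Polycomb proteins keep developmental genes silent in cells that do not use them. Ring1b (gene Rnf2) is the ubiquitin ligase of Polycomb repressive complex 1 (PRC1) and adds ubiquitin to histone H2A. Suz12 is a core subunit of Polycomb repressive complex 2 (PRC2), whose enzymes Ezh2 and Ezh1 place the repressive trimethyl mark H3K27me3 on histone H3. Canonical PRC1 is brought to H3K27me3 by Cbx proteins, whereas variant PRC1 forms reach CpG-rich promoters without that mark, among them the form with Mga and E2f6 that silences germline genes in mouse cells.

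Promoter sequences of 5 genes show the DNA under each class of site, with every CG dinucleotide in capitals, since CpG-rich DNA is the common ground of both complexes. Each is the 250 bases before a gene start, given 5′ to 3′ on the strand of the gene, from RefSeq on GRCm38.p6, the assembly that mm10 takes its chromosomes from. Hand2 carried both proteins, Dlx1 carried Ring1b alone with H3K27me3, Tdrkh and Ezh2 carried Ring1b alone without H3K27me3, and Ihh carried Suz12 alone.
Hand2, chr8:57320733-57320982, plus strand: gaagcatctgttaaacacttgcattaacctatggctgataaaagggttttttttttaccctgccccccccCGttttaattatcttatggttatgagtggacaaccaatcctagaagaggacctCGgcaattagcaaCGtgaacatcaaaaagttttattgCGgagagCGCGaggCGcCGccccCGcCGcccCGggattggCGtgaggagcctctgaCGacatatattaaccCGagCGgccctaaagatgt
Dlx1, chr2:71529195-71529444, plus strand: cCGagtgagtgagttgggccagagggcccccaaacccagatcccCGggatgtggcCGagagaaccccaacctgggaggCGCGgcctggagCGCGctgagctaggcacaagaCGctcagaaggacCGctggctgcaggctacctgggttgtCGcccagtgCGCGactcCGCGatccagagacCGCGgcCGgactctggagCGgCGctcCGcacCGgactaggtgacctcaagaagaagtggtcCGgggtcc
Tdrkh, chr3:94412994-94413243, plus strand: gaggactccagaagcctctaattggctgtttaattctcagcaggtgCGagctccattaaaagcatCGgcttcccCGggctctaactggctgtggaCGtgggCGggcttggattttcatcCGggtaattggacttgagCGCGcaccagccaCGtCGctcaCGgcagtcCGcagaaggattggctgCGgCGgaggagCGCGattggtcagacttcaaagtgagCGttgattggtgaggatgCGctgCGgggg
Ezh2, chr6:47595031-47595280, minus strand: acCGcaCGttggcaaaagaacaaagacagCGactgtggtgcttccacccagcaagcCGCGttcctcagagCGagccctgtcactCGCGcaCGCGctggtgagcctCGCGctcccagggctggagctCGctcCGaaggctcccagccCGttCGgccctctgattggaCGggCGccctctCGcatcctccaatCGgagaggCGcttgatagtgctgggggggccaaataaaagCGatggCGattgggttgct
Ihh, chr1:74951673-74951922, minus strand: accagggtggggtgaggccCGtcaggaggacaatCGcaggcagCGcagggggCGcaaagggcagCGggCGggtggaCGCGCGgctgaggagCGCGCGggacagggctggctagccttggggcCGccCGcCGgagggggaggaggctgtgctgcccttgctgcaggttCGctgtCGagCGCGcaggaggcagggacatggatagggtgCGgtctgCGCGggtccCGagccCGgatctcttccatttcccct
These 250-base stretches held 15 CG dinucleotides at Hand2, 22 at Dlx1, 19 at Tdrkh, 23 at Ezh2 and 24 at Ihh, so all 5 were above the median of 13 that the 300 bases around a gene start hold over all promoters.

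Most Suz12 peaks lay on Ring1b, and most Ring1b peaks lay away from Suz12. Of the 1754 Ring1b peaks, 393 (22.4%, exact 95% interval 20.5 to 24.4%) overlapped a Suz12 peak by at least 1 base. Of the 631 Suz12 peaks, 492 (78.0%, 74.5 to 81.1%) overlapped a Ring1b peak. In length, the shared 1.65 Mb made up 32.0% of the 5.17 Mb covered by Ring1b and 80.8% of the 2.05 Mb covered by Suz12. As a share of sites, both proteins held 19.7% (17.9 to 21.5%), Ring1b alone 72.9% (70.8 to 74.9%) and Suz12 alone 7.45% (6.30 to 8.73%). With the Ring1b list kept to its widest peaks, as many as Suz12 has, 46.8% of Ring1b peaks overlapped Suz12, 64.8% of Suz12 peaks overlapped Ring1b, and sites with Ring1b alone numbered 336. With peaks of at least 2 kb the Ring1b share was 37.3%. The intervals cover the counting of peaks only, because the number of reads and the calling threshold are unknown. With 1 library per protein the shares have no replicate check, and a site without a called peak is not shown to lack the protein.

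**Figure D1:**
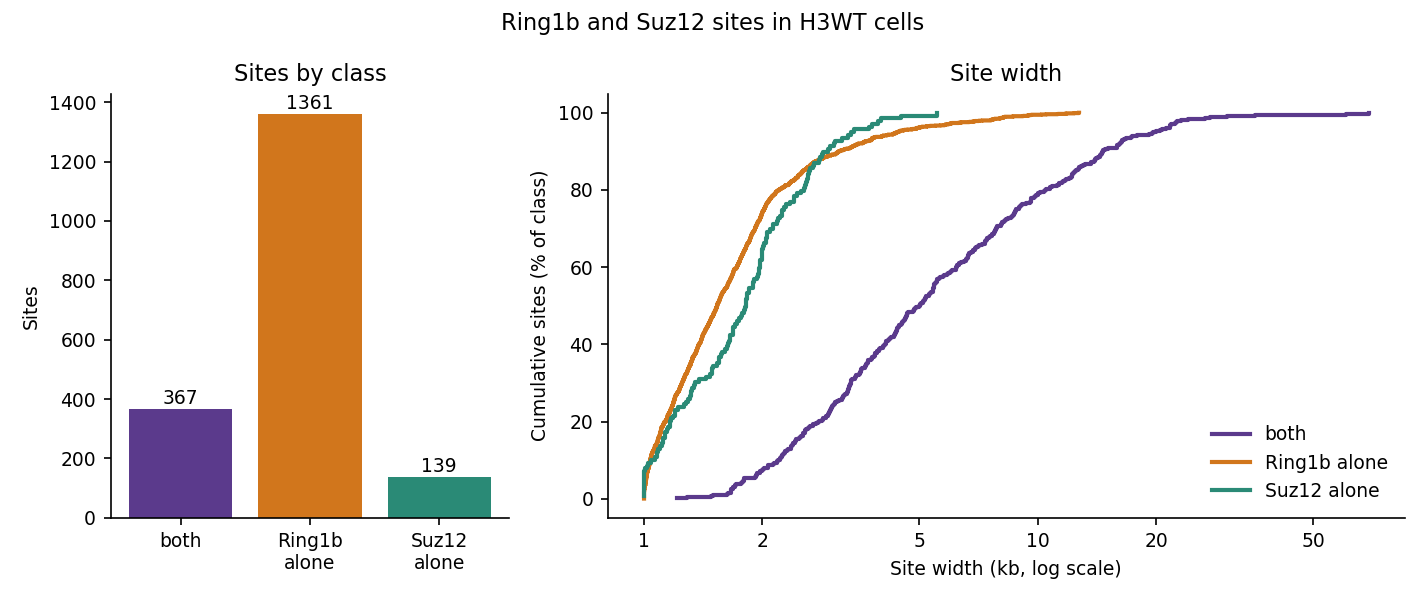
The left panel gives the number of sites in H3WT DMSO cells with both proteins (367), Ring1b alone (1361) and Suz12 alone (139). The right panel gives the cumulative percent of sites in each class up to a width in kb on a log axis, and the curve for sites with both lies to the right, with a median of 5.01 kb, against 1.54 kb for Ring1b alone and 1.82 kb for Suz12 alone.

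Sites with both proteins were the wide ones. Their median width was 5.01 kb (quartiles 3.08 and 8.81 kb), against 1.54 kb (1.19 and 2.02 kb) for Ring1b alone and 1.82 kb (1.29 and 2.26 kb) for Suz12 alone. A width of 5 kb or more was reached by 185 sites with both (50.4%), 52 with Ring1b alone (3.82%) and 1 with Suz12 alone. Although they were 19.7% of sites, those with both made up 47.7% of the covered length, with 2.65 Mb, against 47.6% for Ring1b alone and 4.78% for Suz12 alone. A site with both joins peaks of 2 lists, which by itself widens it, but the Ring1b peaks alone showed the same order, with a median of 4.33 kb where Suz12 overlapped and 1.54 kb where it did not. Suz12 peaks had a median of 2.65 kb where Ring1b overlapped and 1.82 kb where it did not. A wider peak also has more bases on which to meet another, and the part of this in the shares was not tested.

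Wider peaks of either protein overlapped the other more often. Of Ring1b peaks, Suz12 overlapped 46 of 693 (6.64%) between 1 and 1.5 kb, 50 of 413 (12.1%) between 1.5 and 2 kb and 40 of 243 (16.5%) between 2 and 3 kb. The share was 81 of 177 (45.8%) between 3 and 5 kb, 104 of 149 (69.8%) between 5 and 10 kb and 72 of 79 (91.1%) at 10 kb and wider. Of Suz12 peaks, Ring1b overlapped 85 of 133 (63.9%) and 69 of 108 (63.9%) in the 2 narrowest bins, 127 of 167 (76%) between 2 and 3 kb and 111 of 122 (91.0%) between 3 and 5 kb. All 23 Suz12 peaks of 10 kb and wider lay on Ring1b, as did 77 of the 78 between 5 and 10 kb. Between 1 and 1.5 kb, few Ring1b peaks had a Suz12 partner and most Suz12 peaks had a Ring1b partner.

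**Figure D2:**
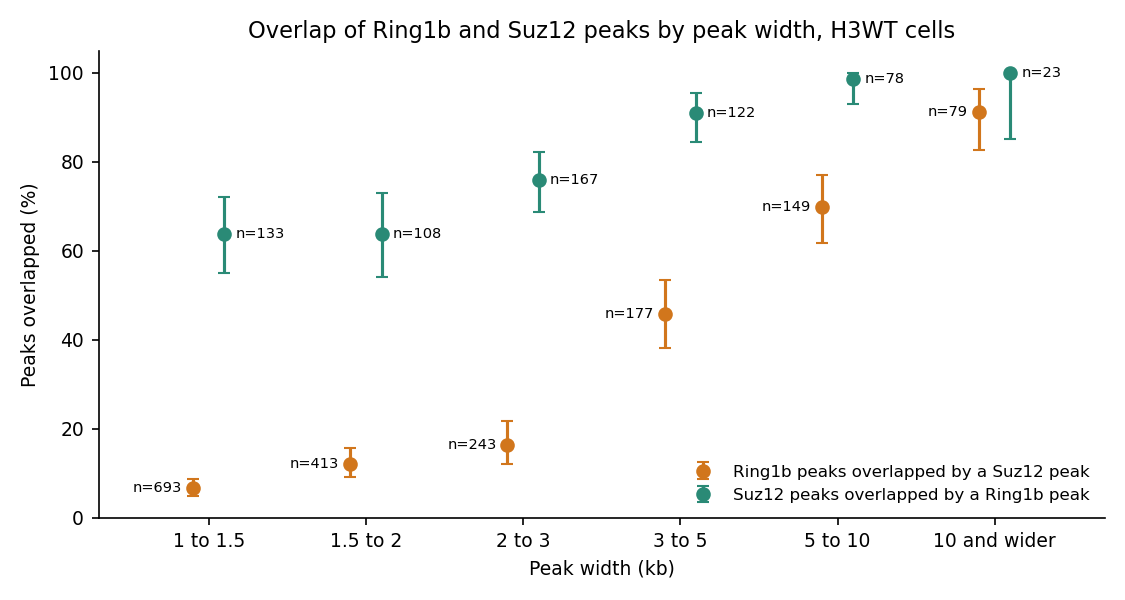
Percent of Ring1b peaks overlapped by a Suz12 peak, and of Suz12 peaks overlapped by a Ring1b peak, in 6 bins of peak width in kb in H3WT DMSO cells, with exact 95% intervals and the number of peaks in each bin. Ring1b peaks run between 6.64% in the narrowest bin and 91.1% in the widest, and Suz12 peaks between 63.9% and 100%.

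Within sites with both, Ring1b was usually the broader domain and Suz12 lay inside it. Ring1b covered more bases than Suz12 at 273 of the 367 sites and fewer at 94. The median lengths were 4.67 kb for Ring1b and 3.15 kb for Suz12, and the median ratio of Ring1b to Suz12 length within a site was 1.32 (quartiles 0.994 and 1.79). Every Suz12 base lay within Ring1b at 197 sites, and every Ring1b base lay within Suz12 at 62. A single peak of each protein made up 278 sites, and at 64 sites a single Ring1b peak spanned several Suz12 peaks, whereas a single Suz12 peak spanned several Ring1b peaks at 14. Contact was seldom marginal: the smallest shared length was 183 bp, and 2 sites shared under 200 bp.

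Single-protein sites of either kind were mostly not near misses. Of the sites with Ring1b alone, 22 of 1361 lay within 1 kb of a Suz12 peak, 78 (5.73%) within 5 kb and 185 (13.6%) within 50 kb. Of the sites with Suz12 alone, 10 of 139 lay within 1 kb of a Ring1b peak, 20 (14.4%) within 5 kb and 36 (25.9%) within 50 kb. The median distance to the other protein was 1350 kb for the 1334 sites with Ring1b alone on a chromosome that carries Suz12 peaks, and 244 kb for Suz12 alone. The Suz12 list had 0 peaks on the X chromosome, so the 27 Ring1b sites there were all Ring1b alone. Of those 27, H3K27me3 peaks of both H3WT DMSO libraries covered 19, 1 library covered 4 and neither covered 4.

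Gene ends held a large share of the sites of all 3 classes. Gene positions came from 21631 RefSeq protein-coding genes, and a site was placed at a gene end when it came within 1 kb of either end of a gene. This was the case for 264 of 367 sites with both (71.9%, 67.0 to 76.5%), 734 of 1361 with Ring1b alone (53.9%, 51.2 to 56.6%) and 98 of 139 with Suz12 alone (70.5%, 62.2 to 77.9%). A further 41 sites with both (11.2%), 332 with Ring1b alone (24.4%) and 26 with Suz12 alone (18.7%) lay inside a gene, and 62 sites with both (16.9%), 295 with Ring1b alone (21.7%) and 15 with Suz12 alone (10.8%) lay between genes. With gene starts only, the shares at a gene end were 49.4% for both, 46.9% for Ring1b alone and 56.2% for Suz12 alone. When only peaks 2 kb or wider were kept, they were 74.6% for both, 46.3% for Ring1b alone and 78.1% for Suz12 alone. Since wide sites reach a gene end more easily, the distance of the site centre to the nearest gene start was taken too. Centres were within 1 kb of a start at 85 of 358 sites with both (23.7%), 561 of 1325 with Ring1b alone (42.3%) and 64 of 137 with Suz12 alone (46.7%). The median distance was 5.71 kb for both, 3.66 kb for Ring1b alone and 1.15 kb for Suz12 alone. Sites on chromosome 18 have no start in the promoter table and are missing from these denominators.

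The widest sites with both proteins at gene ends lay over clusters and single genes of developmental transcription factors. The Hoxd cluster, whose homeobox genes pattern the trunk and limbs, held the widest site, named for Hoxd10 (chr2:74647582-74716778), where a single Ring1b peak of 69.2 kb spanned 9 Suz12 peaks that covered 57.7 kb. The Hoxa cluster site at Hoxa10 (chr6:52210700-52271387) had a single Ring1b peak of 60.7 kb over 5 Suz12 peaks covering 41.0 kb. Hand2, which directs heart and limb formation, had a Ring1b peak of 30.2 kb (chr8:57308211-57338413) over 4 Suz12 peaks covering 17.6 kb. At Zic4, Sp8, Uncx, Foxb1, Nkx2-5 and Otp, all transcription factor genes, Ring1b covered between 22.3 and 27.4 kb and Suz12 between 10.2 and 19.3 kb. In all 9 of these sites Ring1b covered more bases than Suz12, and both H3WT DMSO H3K27me3 libraries had a peak. Away from gene ends, the widest site with both lay inside the imprinted gene Zdbf2 (nearest gene end: Gpr1), with 35.6 kb of Ring1b over 8 Suz12 peaks covering 29.7 kb. The widest between genes had Hsd17b12 as its nearest gene, with 21.1 kb of Ring1b and 6.99 kb of Suz12. Inside genes, Zdbf2 was followed by Gata4, with 19.8 kb of Ring1b and 15 kb of Suz12, and Tbx15, with 17.3 kb of Ring1b and 5.09 kb of Suz12.

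The 10 widest sites with Ring1b alone at gene ends lay, with 1 exception, over genes of transcription factors, and each had an H3K27me3 peak. Dlx1, a homeobox gene of forebrain interneurons, had 12.7 kb of Ring1b (chr2:71526797-71539532) and its nearest Suz12 peak lay 3109 kb away. Tcf21, a factor of mesenchymal organs, had 12.4 kb (chr10:22811116-22823491), Otx2, a factor of the forebrain, 11.9 kb (chr14:48662376-48674226), and Osr2 11.8 kb. Nr2f2, Isl2, En2, Esx1, Cdk6 and Tbx18 had between 8.19 and 10.5 kb. The Nr2f2 site was a near miss, with a Suz12 peak 0.518 kb away. At the others on chromosomes with Suz12 peaks, the nearest one was at least 512 kb away. Cdk6, a cyclin-dependent kinase, was the only one of the 10 that does not encode a transcription factor. All 10 sites had the H3K27me3 peak in both H3WT DMSO libraries, and all 10 overlapped a Ring1b and a Suz12 peak in K27M cells. At the X-linked Esx1 no K27M Suz12 peak reached the 1 kb windows of the gene ends. At Dlx1 the K27M peaks were 23.8 kb for Ring1b and 18.7 kb for Suz12, so the same gene held both proteins in the K27M lists and Ring1b alone in the H3WT lists.

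The widest sites with Suz12 alone at gene ends included ligands, synaptic genes and transcription factors, at smaller widths. Ihh, a Hedgehog ligand of bone and gut development, had 5.55 kb of Suz12, and the nearest Ring1b peak downstream began 15.7 kb from the gene start. Ecel1, an endopeptidase of neurons, had 4.51 kb, Fgf4, a fibroblast growth factor of the early embryo, 4.0 kb, and the homeobox gene Nkx2-9 3.93 kb. The peak of 3.79 kb at Lrrc26 also covers an end of Grin1, an NMDA receptor subunit, because the genes overlap. Bhlhe23, C1ql2, Onecut3, Dlgap2 and Grb10 had between 3.06 and 3.41 kb. Of these 10 genes, 3 had a Ring1b peak at the gene end in K27M cells (Fgf4, Nkx2-9 and Onecut3) and 7 had a Suz12 peak there, with Nkx2-9, C1ql2 and Grb10 lacking one.

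**Figure D3:**
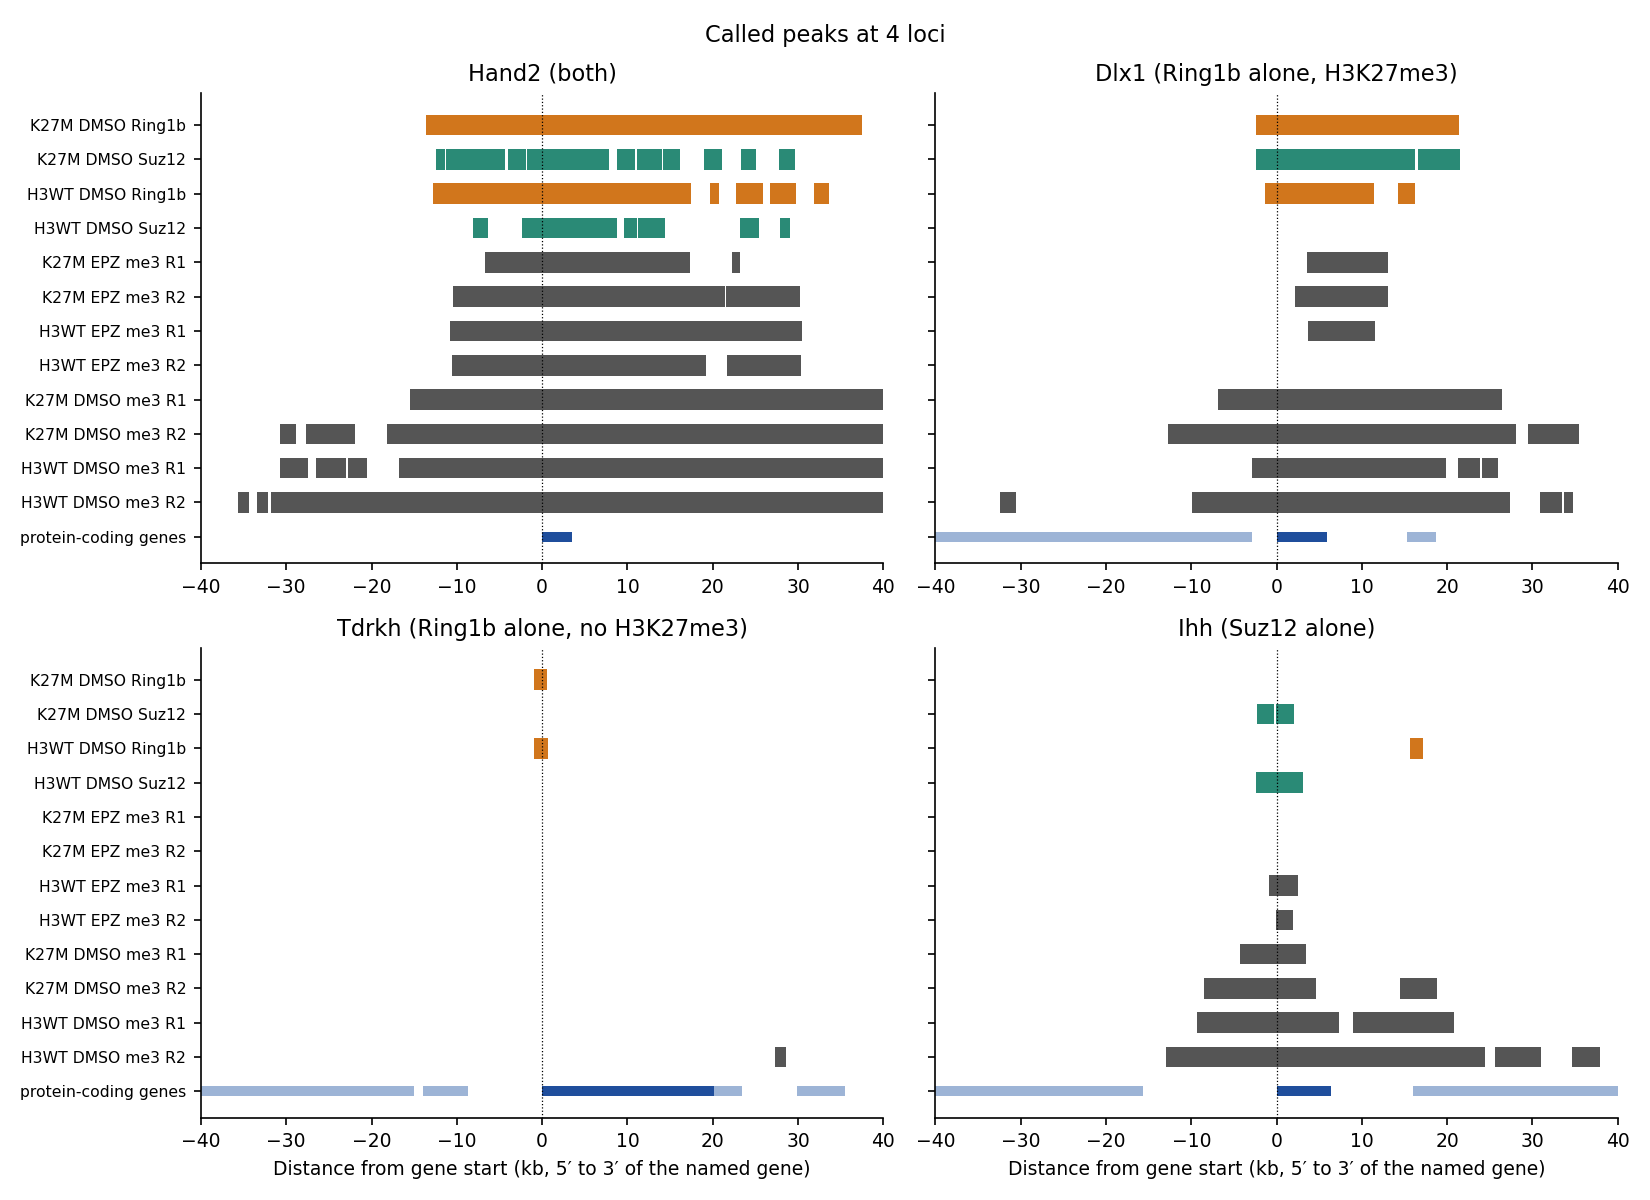
Called peaks within 40 kb of the starts of Hand2, Dlx1, Tdrkh and Ihh, drawn 5′ to 3′ along the named gene, with a row per library (me3 stands for H3K27me3, R1 and R2 for its replicates) and protein-coding genes in the bottom row, the named gene in dark blue. Hand2 has Ring1b and Suz12 peaks in both genotypes and H3K27me3 in all 8 libraries, Dlx1 has both proteins in K27M cells and Ring1b in H3WT cells, Tdrkh has Ring1b without Suz12 or overlapping H3K27me3, and Ihh has Suz12 at its start without Ring1b.

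Counted by gene, 260 of the 21631 protein-coding genes had both proteins within 1 kb of a gene end (1.20%), 780 had Ring1b alone (3.61%) and 109 had Suz12 alone (0.504%). With or without the other protein, Ring1b was at 1040 genes (4.81%) and Suz12 at 369 (1.71%). These shares are the background for the gene lists below. The 260 genes with both included 255 whose Ring1b and Suz12 peaks overlapped each other. Among the 780 genes with Ring1b alone, 17 lay at a site with both whose Suz12 peak fell outside the 1 kb window, Hoxa3, Hoxa7, Zic4 and Neurod1 among them, and 5 of the 109 genes with Suz12 alone lay at such a site. Neighbouring genes of a cluster can share a peak, so the genes of a list are not independent of each other.

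Transcription factors that set body plan and cell fate were most often genes with both proteins. Of 39 Hox genes, 30 had both, 6 had Ring1b alone and 0 had Suz12 alone. The counts were 53, 27 and 3 for 108 other homeobox and paired-box genes, and 30, 11 and 2 for 67 mesoderm and endoderm factors. Gata3, a factor of T cells and several epithelia, had 21.7 kb of Ring1b and 3.98 kb of Suz12, and Evx2, next to the Hoxd cluster, shared its 69.2 kb Ring1b peak. The members with Ring1b alone were mostly marked by H3K27me3: both H3WT DMSO libraries had a peak at 6 of the 6 Hox genes, 26 of the 27 homeobox genes and 10 of the 11 mesoderm and endoderm factors. Lhx9, a LIM homeobox factor, had 20.7 kb of Ring1b without Suz12 at its ends. Suz12 peaks still covered 4.58 kb within 10 kb of those ends, and the Lhx9 promoter at chr1:138842445-138842694, inside the gene, was covered by both proteins. Suz12 alone was found at Lhx3, Nkx2-9 and Onecut3 and at Tbx1 and Sox18. In these 3 lists the share with both was well above the 1.20% of all genes.

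Neuronal differentiation genes with a peak were divided mostly between both and Ring1b alone. Of 55, 13 had both, 13 had Ring1b alone, 4 had Suz12 alone and 25 had neither. The shares of all genes in the first 3 of these classes were 1.20, 3.61 and 0.504%. Sim1 had 16.2 kb of Ring1b and 14.4 kb of Suz12, Sim2 had 13.1 and 8.97 kb, and Fezf1, a factor of forebrain neurons, had 11.3 and 9.57 kb. The proneural factors Neurod1 and Neurog2 had 9.81 and 7.22 kb of Ring1b, with no Suz12 peak at their ends. A 1.84 kb Suz12 peak lay inside Neurod1's Ring1b peak, and the K27M lists had Suz12 at both genes. The members with Suz12 alone were Chat and Slc17a7, which serve acetylcholine synthesis and the vesicular loading of glutamate, and the bHLH factors Ascl2 and Bhlhe23.

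By number of genes, signalling ligands and ion channels and receptors were the lists with most Suz12 alone; by share, imprinted genes, with 3 of 30, stood beside them. Of 70 signalling ligands and antagonists, 7 had both, 9 had Ring1b alone and 10 had Suz12 alone, against 0.504% of all genes with Suz12 alone. The 10 were the Wnt ligands Wnt3a, Wnt10a and Wnt11, the Wnt antagonists Dkk1 and Sfrp5, the bone morphogenetic proteins Bmp4 and Bmp6, the fibroblast growth factors Fgf3 and Fgf4, and Ihh. Their Suz12 peaks were between 1.13 kb at Wnt11 and 5.55 kb at Ihh, and Bmp4 had 4.32 kb. Of 81 ion channels and transmitter receptors, 5 had both, 3 had Ring1b alone and 8 had Suz12 alone. Among them were the potassium channel Kcna1, the pacemaker channel Hcn4, the glutamate receptor subunits Grik3, Grin1 and Grin2d, the nicotinic receptor subunit Chrna3 and the adrenergic receptor Adra2c. Even where both proteins were present Suz12 could be the wider peak here, as at Wnt1 with 1.30 kb of Ring1b and 3.18 kb of Suz12, or at the potassium channel Kcnk12 with 1.02 and 3.04 kb. Ring1b was the wider at Chrm2, with 2.84 kb against 1.02 kb of Suz12, and Gdf7 was nearly even, with 2.59 and 2.58 kb. Of 43 axon guidance genes, 2 had both (Epha7 and Efna5), 6 had Ring1b alone and 1, the ephrin receptor Epha8, had Suz12 alone. Among all genes, 1.20% had both and 3.61% had Ring1b alone. Genes named from a list beyond its 3 widest peaks per class were chosen after their values were seen.

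The genes of progenitor identity, growth and basic cell functions that had a peak nearly all had Ring1b alone, without H3K27me3 in H3WT DMSO cells. Ring1b alone was also the most common class over all genes, and 429 of those 780 genes (55.0%) had no H3K27me3 peak in either H3WT DMSO library. Of 35 neural stem and glial progenitor genes, 1 had both (Id4) and 4 had Ring1b alone, Hes1, Nfib, Sox21 and Nes, with peaks between 1.01 and 1.81 kb and no H3K27me3 peak in either H3WT DMSO library. These 5 with Ring1b are 14.3% of the list, against 4.81% of all genes with Ring1b. Of 38 ribosomal and housekeeping genes, Actb (1.99 kb), Pgk1 (1.94 kb) and Hnrnpk (1.37 kb) had Ring1b alone, and of 47 genes of cell cycle and replication Cdt1 (1.41 kb) did. Hdac2 and Brd2 did so among 38 genes of chromatin and transcription. None of these 6 had an H3K27me3 peak at a gene end in the H3WT DMSO libraries, and Pgk1 had one in K27M DMSO replicate 2. The counts of these 3 lists, 3 of 38, 1 of 47 and 2 of 38, stand beside 3.61% of all genes with Ring1b alone. In the 3 lists 0 genes had a Suz12 peak, against 1.71% of all genes. Counts this small do not set the 3 lists apart from all genes. Olig2, Sox2 and Pdgfra had neither protein, and Pdgfra had a 1.66 kb Ring1b peak in K27M cells.

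Genes of the Polycomb complexes themselves were among those with Ring1b. Of 37 genes of PRC1 subunits, 8 had Ring1b alone: Pcgf1, Pcgf2, Pcgf5, Cbx2, Rybp, E2f6, Mga and Fbrs, with peaks between 1.12 and 2.61 kb, against 3.61% of all genes. Bmi1, also called Pcgf4, had both, with 2.69 kb of Ring1b and 1.08 kb of Suz12, and was the sole site with both that lacked H3K27me3 in 1 of the H3WT DMSO libraries. Of 12 PRC2 genes 1, Ezh2, had Ring1b (1.22 kb), with no Suz12 and no H3K27me3. Suz12, Eed and Rnf2 themselves had no peak of either protein.

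Most cell cycle inhibitors and germline genes with a peak had Ring1b alone, which was also the most common class over all genes, at 3.61% of them. Of 23 inhibitors, 1 had both (Trp73, 5.19 kb of Ring1b and 2.85 kb of Suz12) and 5 had Ring1b alone: Cdkn2a, Rb1, Rbl1, Gadd45a and Gadd45g. Cdkn2a, which encodes the tumour suppressors INK4A and ARF, had 4.03 kb of Ring1b with H3K27me3 in both H3WT DMSO libraries and no Suz12 peak. In K27M cells Cdkn2a had 28.9 kb of Ring1b and 2.2 kb of Suz12, against 4.03 kb and none in H3WT cells, with 1 library each. These are widths of single peaks at a gene end. Counting other peaks too, H3WT Ring1b covered 11.3 kb within 10 kb of the Cdkn2a ends. The other 4 inhibitors with Ring1b alone had no H3K27me3 peak at a gene end in the H3WT DMSO libraries, and Cdkn2b had no peak of either protein. Of 50 germline and meiosis genes, 5 had Ring1b alone and 0 had Suz12, against 1.71% of all genes with Suz12. The 5 were the testis helicase Ddx25, the piRNA factor Tdrkh, the meiotic proteins Smc1b and Msh5, and Zpbp2 of the sperm acrosome. In the H3WT DMSO libraries, H3K27me3 was absent from the gene ends of 4 of them and present at Zpbp2 in both.

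Imprinted genes with a peak were spread over all 3 classes, and 22 of the 30 had neither protein. Of 30, Phlda2 had both, Ndn, Magel2, Mkrn3 and Calcr had Ring1b alone, and Ascl2, Grb10 and Gnas had Suz12 alone. Mkrn3 and Magel2, neighbours in the Prader-Willi region on chromosome 7, had 8.15 and 5.02 kb of Ring1b, and all 4 with Ring1b alone had H3K27me3 in both libraries. Of 34 mesenchymal, endothelial and microglial genes 1, the VEGF receptor Flt1, had both, and of 23 astrocyte and oligodendrocyte genes 3 had Ring1b alone (Gpr37, Nkx6-2 and Gja1). Over all genes, 1.20% had both, 3.61% had Ring1b alone and 0.504% had Suz12 alone.

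**Figure D4:**
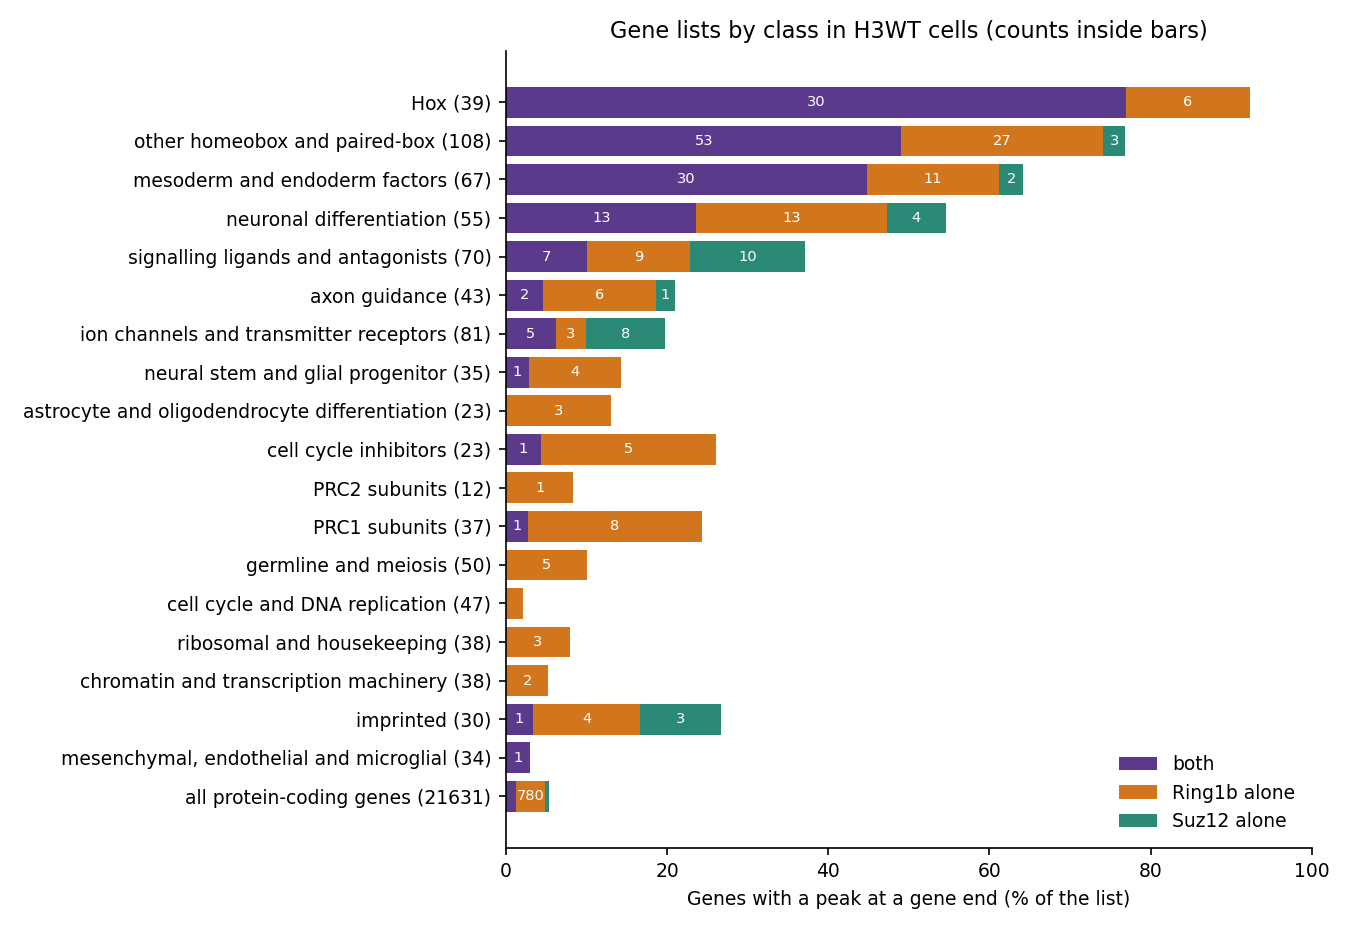
Percent of the genes of each list with both proteins, Ring1b alone or Suz12 alone within 1 kb of a gene end in H3WT DMSO cells, with the number of genes in the bars and the size of each list in parentheses. Hox genes reach the highest share with both (30 of 39), signalling ligands (10 of 70) and ion channels and receptors (8 of 81) hold the most genes with Suz12 alone by number, and the bottom bar gives all 21631 protein-coding genes.

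H3K27me3, which played no role in choosing the sites, set apart a share of the sites with Ring1b alone. It did not separate sites with both from sites with Suz12 alone in H3WT DMSO cells. In H3WT DMSO cells, 366 of 367 sites with both had an H3K27me3 peak in both libraries, and so did all 139 sites with Suz12 alone (lower bound of the exact interval 97.4%). Of the 1361 sites with Ring1b alone, 693 (50.9%, 48.2 to 53.6%) had one in both libraries, 120 (8.82%) in 1 and 548 (40.3%, 37.6 to 42.9%) in neither. At gene level, 259 of the 260 genes with both and all 109 with Suz12 alone had H3K27me3 at a gene end in both libraries, against 10.6% of all genes, whereas 264 of the 780 with Ring1b alone did (33.8%) and 429 had it in neither (55.0%).

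The 693 sites with Ring1b alone that H3K27me3 marked in both libraries and the 548 that it marked in neither are described here side by side, without a test, as each protein has 1 library. The marked sites had a median width of 1.80 kb, 250 (36.1%) lay at a gene end, 177 (25.5%) lay within 50 kb of a Suz12 peak, and 255 (36.8%) had a Suz12 peak in K27M cells. The unmarked sites had a median width of 1.37 kb, 411 (75%) lay at a gene end, 6 (1.09%) lay within 50 kb of a Suz12 peak, and 1 (0.182%) had a Suz12 peak in K27M cells. Ring1b itself recurred at both kinds in the K27M library, at 535 marked (77.2%) and 393 unmarked sites (71.7%). The widest unmarked sites at gene ends, chosen after their values were seen, were at Inppl1 (3.13 kb), a lipid phosphatase, and Ier2 (3.11 kb), an immediate-early gene, followed by Cacna2d1 (2.64 kb), Fzd2 (2.50 kb), a Wnt receptor, and Tle3 (2.47 kb), a transcriptional corepressor. The K27M library had a Ring1b peak at 4 of those 5 genes, all but Cacna2d1.

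EPZ6438 lowered the H3K27me3 share in all 3 classes. At sites with both, the share with an H3K27me3 peak was 36.2 and 49.9% in K27M EPZ and 61.3 and 56.9% in H3WT EPZ libraries, against 96.2 and 99.5% in K27M DMSO and 99.7 and 100% in H3WT DMSO libraries. At sites with Ring1b alone it was 0.955, 4.19, 3.67 and 2.35% in the same EPZ libraries, against 38.3, 52.7, 51.1 and 59.6% in the DMSO libraries. At sites with Suz12 alone it was 7.19, 7.91, 20.1 and 18% with EPZ, against 90.6, 99.3, 100 and 100% with DMSO. EPZ and DMSO libraries did not overlap in any class.

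The means of sites with both were 51.1 ± 11% with EPZ and 98.8 ± 1.79% with DMSO (SD, n = 4 each), a difference of -47.8 points. Those of Ring1b alone were 2.79 ± 1.45% and 50.4 ± 8.89%, a difference of -47.6 points, and those of Suz12 alone were 13.3 ± 6.71% and 97.5 ± 4.57%, a difference of -84.2 points. Each difference had p = 0.0286 in a two-sided exact permutation test, the smallest that 4 against 4 allows, and the same value after Benjamini-Hochberg adjustment over the 3 classes. The EPZ lists covered 1.1 to 2.36 Mb of genome and the DMSO lists 13.5 to 217 Mb, so the lists as a whole were shorter with EPZ, and a shorter list meets fewer sites of any kind. Whether replicates were separate cultures is not stated, so these p-values measure the spread between these libraries.

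Under EPZ, H3K27me3 peaks persisted mainly at wide sites with both. All 4 EPZ libraries still had a peak at 129 of the 367 sites with both (35.1%), whose median width was 9.85 kb, and none had one at 137 (37.3%), whose median width was 2.94 kb. Of sites with Ring1b alone, 9 kept a peak in all 4 EPZ libraries and 1289 (94.7%) had none. Of sites with Suz12 alone, 6 kept one in all 4 and 109 (78.4%) had none. Of those 9 Ring1b-alone sites, 8 lay between 0.428 and 4.10 kb of a Suz12 peak, and their nearest gene ends were those of Lmx1b, Six3 (2 sites), Olig3, Hoxb9, Foxc2, Hoxb4 and Six2, and 3 of the 6 Suz12-alone sites, nearest to Six3 (2 sites) and Foxl1, lay between 0.348 and 0.455 kb of a Ring1b peak. These genes were chosen after their values were seen.

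Compared within each of the 8 H3K27me3 libraries, which share depth and antibody between the classes, sites with both were marked more often than sites with Ring1b alone in 8 of 8, by 48.4 points on average (range 35.3 to 57.9). A two-sided exact sign-flip permutation test over the libraries gave p = 0.00781 (adjusted p = 0.0117 over 3 class pairs), the smallest that 8 libraries allow. Sites with Suz12 alone exceeded Ring1b alone in 8 of 8, by 28.8 points (3.73 to 52.4, exact permutation p = 0.00781, adjusted p = 0.0117). Sites with both exceeded Suz12 alone in 6 of 8, by 19.6 points (-0.272 to 42.0, exact permutation p = 0.0469, adjusted p = 0.0469). That last call was lost without any 1 of 6 libraries, at 16.5 points without H3WT EPZ replicate 1, 16.8 without H3WT EPZ replicate 2, 18.2 without K27M EPZ replicate 1, 16.4 without K27M EPZ replicate 2, 21.6 without K27M DMSO replicate 1 and 22.3 without K27M DMSO replicate 2 (exact permutation p between 0.0625 and 0.0938). The averages pool EPZ and DMSO libraries, which differed. With EPZ the mean shares were 51.1% for both, 2.79% for Ring1b alone and 13.3% for Suz12 alone. With DMSO they were 98.8, 50.4 and 97.5%. The difference between both and Suz12 alone thus lay mostly in the EPZ libraries, and that between Suz12 alone and Ring1b alone mostly in the DMSO libraries. Because wider sites meet more H3K27me3 peaks, the comparison was repeated over sites of 2 to 4 kb, an alternative added after seeing the data. There both exceeded Ring1b alone by 19.9 points in 8 of 8 libraries (exact permutation, adjusted p = 0.0234) and Suz12 alone exceeded Ring1b alone by 16.6 points in 7 of 8 (adjusted p = 0.0234, exact permutation). The 19.6 points between both and Suz12 alone shrank to 3.26 in that band (4 of 8 libraries, exact permutation p = 0.203), and the call was lost.

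**Figure D5:**
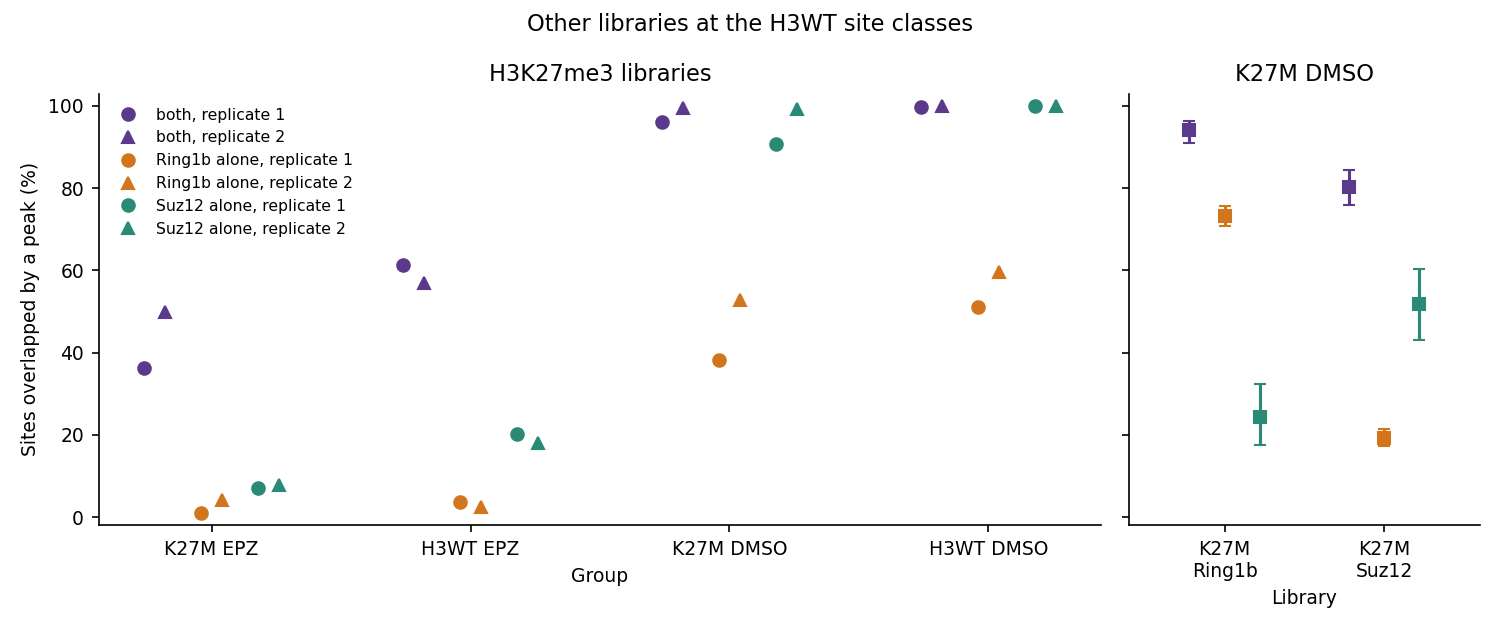
The left panel gives the percent of H3WT sites of each class overlapped by an H3K27me3 peak, with a symbol per library of K27M EPZ, H3WT EPZ, K27M DMSO and H3WT DMSO cells. The right panel gives the percent overlapped by the K27M DMSO Ring1b and Suz12 peaks with exact 95% intervals, and sites with Ring1b alone lie lowest in all 8 H3K27me3 libraries and in the Suz12 library, and sites with Suz12 alone lowest in the Ring1b library.

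Between genotypes in DMSO, the H3K27me3 share of the sites averaged lower in K27M than in H3WT libraries in all 3 classes, and 2 libraries a group are too few for a test to pass the threshold of 0.05. At sites with both it was 97.8 ± 2.31% in K27M DMSO and 99.9 ± 0.193% in H3WT DMSO libraries (SD, n = 2 each), a difference of -2.04 points. At sites with Ring1b alone it was 45.5 ± 10.2% in K27M and 55.3 ± 6.03% in H3WT libraries, a difference of -9.85 points, and at sites with Suz12 alone 95.0 ± 6.10% in K27M and 100% in H3WT libraries, a difference of -5.04 points. The size moved with single libraries: without K27M replicate 1 the differences were -0.409 points for both, -2.65 for Ring1b alone and -0.719 for Suz12 alone, and without K27M replicate 2 they were -3.68, -17.0 and -9.35 points. Without H3WT replicate 1 or 2, the difference at sites with Ring1b alone was -14.1 or -5.58 points. The two-sided exact permutation p was 0.333 for both, 0.667 for Ring1b alone and 0.333 for Suz12 alone (adjusted p = 0.5, 0.667 and 0.5), and 2 against 2 cannot give less than 0.333. The K27M lists covered 13.5 and 65.5 Mb and the H3WT lists 43.6 and 217 Mb.

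The K27M lists returned sites with both most often and Suz12-alone sites least. Of the 367 sites with both in H3WT cells, 289 (78.7%, 74.2 to 82.8%) again held both in K27M cells, 56 held Ring1b, 6 held Suz12 and 16 held neither. Of the 1361 sites with Ring1b alone, 741 (54.4%) again held Ring1b alone, 257 (18.9%, 16.8 to 21.1%) held both, 5 held Suz12 alone and 358 (26.3%) neither. Of the 139 sites with Suz12 alone, 46 (33.1%) again held Suz12 alone, 26 held both, 8 held Ring1b alone and 59 (42.4%, 34.1 to 51.1%) neither. Taken by protein, the K27M Ring1b peaks covered 94.0% of sites with both, 73.3% of Ring1b alone and 24.5% of Suz12 alone, and the K27M Suz12 peaks covered 80.4, 19.3 and 51.8% of them. Among sites of 2 to 4 kb, the K27M Ring1b peaks covered 83.8% of both, 88.0% of Ring1b alone and 24.5% of Suz12 alone. The K27M Suz12 peaks covered 68.4, 30.1 and 59.2% of them. At that width Ring1b thus recurred no more often at sites with both than at Ring1b alone. The K27M Suz12 list was the longer, with 1252 peaks against 631 in H3WT cells, whereas the Ring1b lists had 1808 peaks in K27M and 1754 in H3WT cells. With 1 library per protein and genotype, these differences cannot be told apart from those between libraries.

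Promoters of all 3 classes held more CG dinucleotides than promoters at large, described here without a test. Over 300 bases around a gene start, 250 before and 50 after, the median number of CG dinucleotides was 21.5 at 176 promoters covered by both proteins, 28 at 698 covered by Ring1b alone and 27 at 80 covered by Suz12 alone, against 13 over all 21045 promoters. Promoters with fewer than 5 were 4.55, 1.58 and 2.50% of the 3 classes and 27.7% of all promoters. Within Ring1b alone, 171 promoters with H3K27me3 in both H3WT DMSO libraries had a median of 22 and an observed-to-expected CpG ratio of 0.768, and the 466 with none had 29 and 0.883. The 1031 promoters with H3K27me3 in both libraries and neither protein had a median of 15 and a ratio of 0.583.

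The E-box CACGTG and the E2F-type motif GCGGGAA, with its reverse complement TTCCCGC, are letters known to be read by Mga with Max and by E2f6, which belong to a variant PRC1. Searched on both strands of the 300 bases, CACGTG was in 8.52% of promoters with both, 13.6% with Ring1b alone and 8.75% with Suz12 alone, against 7.91% of all promoters. GCGGGAA was in 7.95, 11.3 and 3.75% of the 3 classes, against 6.02% of all promoters. Among Ring1b-alone promoters, CACGTG was in 15% and GCGGGAA in 12.9% of those without H3K27me3, and in 9.36 and 5.85% of those with it in both libraries. CpG content moved with these shares: among promoters with at least 20 CG dinucleotides, CACGTG was in 15.9% of those with Ring1b alone and no H3K27me3 and in 11.5% of those with neither protein, and GCGGGAA was in 14.0 and 11.4%. The motifs can share at most 1 end base, and a match describes the letters only. None of the 5 printed sequences holds either motif.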

How the data were processed

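ChIP-seq peak lists of 12 libraries, 1 list per library as deposited by the authors, were analysed, and the 2 IgG libraries among the 14 samples were not analysed here. Sample titles and descriptions gave the groups and replicate numbers. Per the submitters' processing notes, the aligner Bowtie 1.1.2 and the build mm10 (mouse) were used. Which caller, threshold and control made the peaks, and the read depth, are not given in the sources used here. The deposited lists hold positions in bases, and their score was 0 in all 100144 lines, so peak height, enrichment and p-values per peak were not used. The narrowest peak was 1001 bp. A list shows where a caller passed its threshold, so depth and enrichment change the number and width of peaks.

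Peaks that touched or overlapped were merged within a library, and Ring1b and Suz12 peaks sharing at least 1 base were joined into sites. Genes, gene ends and promoter sequences came from RefSeq on GRCm38.p6. Of the 21631 genes, 17274 had a start in the promoter table, which was used for starts. All 830 entries of the gene lists matched. Exact Clopper-Pearson 95% intervals cover counting of peaks only. Shares were compared over libraries by exact permutation with Benjamini-Hochberg adjustment, in Python 3.11.15, numpy 2.4.6 and scipy 1.17.1, and the merging and permutation steps were tested on simulated data. The genes named were those of the 10 widest sites at gene ends per class, up to 3 genes per list and class by peak width, a set of Polycomb and glioma genes, and the 3 widest sites per class away from genes. The sites, lists and rules were chosen with earlier results of these data known. Alternatives changed the overlap rule, the minimum width, the length of the Ring1b list, the gene window, the chromosomes and the libraries. A few genes that the rule names are not reported here.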

Additional observations from a re-analysis of the deposited data

How the results depend on the processing

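Of 188 alternative values over 23 results, 150 kept their direction, their side of the threshold or their size, 28 moved, 10 fell short of the threshold and 0 reversed. With peaks of at least 2 kb alone, 232 sites held both and 406 Ring1b alone, 37.3% of Ring1b peaks met Suz12, widths were 7.15 kb for both, 2.84 kb for Ring1b alone and 2.60 kb for Suz12 alone, gene ends held 46.3% of Ring1b alone and 78.1% of Suz12 alone, and 195 genes had Ring1b alone. With the Ring1b list kept to its widest peaks, as many as Suz12 has, 336 sites held Ring1b alone and 222 Suz12 alone, 46.8% of Ring1b and 64.8% of Suz12 peaks overlapped, widths were 6.45 kb for both and 2.77 kb for Ring1b alone, and 162 genes had Ring1b alone and 166 Suz12 alone. The K27M lists, an alternative chosen after seeing the data, gave 359 sites with Suz12 alone, overlaps of 29.6% of Ring1b and 71.3% of Suz12 peaks, and widths of 6.40 kb for both and 1.62 kb for Suz12 alone. Gene ends held 82.3% of both, 67.7% of Ring1b alone and 81.3% of Suz12 alone within 5 kb, and 49.4, 46.9 and 56.2% with gene starts alone.

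The difference between both and Suz12 alone was 3.26 points at 2 to 4 kb, an alternative added after seeing the data. Leaving out 1 library in turn, EPZ minus DMSO ran between -51.2 and -42.8 points for both, -51.7 and -44.6 for Ring1b alone and -86.5 and -82.1 for Suz12 alone. K27M minus H3WT ran between -3.68 and -0.409, -17.0 and -2.65, and -9.35 and -0.719 points for those classes. Both minus Ring1b alone ran between 47.0 and 50.2 points, Suz12 alone minus Ring1b alone between 25.4 and 32.4, and both minus Suz12 alone between 16.4 and 22.4, with exact permutation p between 0.0313 and 0.0938.

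With the replicate block, EPZ minus DMSO kept -47.8, -47.6 and -84.2 points with adjusted p = 0.125 by exact permutation, the smallest that 4 pairs allow. The labels do not say what a replicate number shares, so the numbers were not taken as pairs in the main tests. Deviations of same-numbered libraries had correlations between -0.0787 and 0.230. The highest, 0.230, was between K27M DMSO and H3WT DMSO, the groups of the genotype comparison. The DMSO lists of replicate 1 covered 13.5 Mb in K27M and 43.6 Mb in H3WT cells. Those of replicate 2 covered more in both genotypes, with 65.5 and 217 Mb. The EPZ lists had no such common order. An effect of replicate number in DMSO is therefore not excluded, and the tests without the block do not allow for it. With the replicate block the genotype comparison kept -2.04 points for both, -9.85 for Ring1b alone and -5.04 for Suz12 alone, with adjusted p = 0.5 by exact permutation. Causes of these shifts were not tested beyond the alternatives' own construction. Unknown depth limits every absence of a peak.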

Other observations

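The average EPZ difference was larger in K27M than in H3WT libraries at sites with both, with -59.9 and -49.6 points in K27M replicates and -38.4 and -43.1 points in H3WT replicates. Each value is an EPZ library minus the DMSO library of the same replicate number, a pairing that the labels do not establish. A group's average does not depend on this pairing, but its 2 values and the permutation p below do. The order was the other way at sites with Ring1b alone, with -37.3 and -48.5 points in K27M and -47.4 and -57.2 points in H3WT replicates. At sites with Suz12 alone the values were -83.5 and -91.4 points in K27M and -79.9 and -82.0 points in H3WT replicates. The genotype difference of these changes had exact permutation p of 0.333, 0.667 and 0.333 over 2 against 2 values, the smallest possible being 0.333, so no genotype difference was shown.

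Among sites with Ring1b alone, the longest inside a gene was in Stxbp5l, a syntaxin-binding protein gene, with 11.2 kb of Ring1b and H3K27me3 in both H3WT DMSO libraries, and neither protein had a peak there in K27M cells. Vax2 and Pax9, homeobox and paired-box factors, followed with 9.64 and 9.18 kb, and both proteins had K27M peaks there.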
